A study of Mus musculus with 36 samples.

Results

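The 4 Notch receptor genes of the mouse, *Notch1*, *Notch2*, *Notch3* and *Notch4*, were followed in bulk RNA-seq of embryonic hearts. They were taken as a gene family by name and not by their measured values, although earlier results of these data were known at the time. All 4 were found in each of the 5 deposited tables, which hold 14846 genes between them. The 36 libraries belong to 5 experiments, each with 4 WT libraries of its own and 4, 2, 3, 3 and 4 mutant libraries. Whole hearts at E12.5, in pools of 4 embryos, came from Jagged1Flox;Nfatc1-Cre embryos (called *Jag1* mutants here) and from Delta4Flox;Nfatc1-Cre embryos (early *Dll4* mutants), and from WT embryos beside each. Ventricles at E15.5, in pools of 3 embryos, came from D4Cdh5-CreER embryos, in which floxed *Dll4* was removed by tamoxifen given at E12.5 (late *Dll4* mutants) and from Delta4GOF;Tie2-Cre embryos (*Dll4* gain of function), again with WT embryos beside each. Ventricles at E16.5, from 1 embryo each, came from Efnb2Flox;Nfatc1-Cre embryos (*Efnb2* mutants) and WT embryos. The floxed alleles are removed, or the *Rosa26* transgene with *Dll4* is switched on, only where Cre is active. Nfatc1-Cre marks endocardium, the cushion mesenchyme derived from it and the coronary vessels that descend from Nfatc1-positive cells. Cdh5-CreERT2 and Tie2-Cre act in endothelium. Cells outside the lineages in which Cre was active keep their alleles. The authors discarded 2 early *Dll4* mutant samples for their *Dll4* level and their clustering in principal component plots. Those are not analysed here. RNA of the E12.5 whole hearts and of the later ventricles was isolated with different kits, so stage, tissue and kit cannot be told apart.

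Notch receptors are single-pass membrane proteins that bind Delta and Jagged ligands on a neighbouring cell. Ligand binding exposes the receptor to cleavage by ADAM proteases and then by γ-secretase, which frees the intracellular domain to enter the nucleus, where it binds Rbpj and Mastermind proteins and switches on targets such as the Hes and Hey genes. In the vasculature, *Notch1* and *Notch4* are the receptors known from endothelium, *Notch3* is known from pericytes and vascular smooth muscle, and *Notch2* is expressed more broadly, in mesenchyme and smooth muscle among other cells. In whole hearts or ventricles the RNA of all these cells is mixed, and fewer cells of a type cannot be told apart from less RNA per cell.

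The 4 genes lie at 3 places in the genome, *Notch3* and *Notch4* both on chromosome 17. On GRCm38, *Notch1* (ENSMUSG00000026923) spans chr2:26457903-26516663 on the minus strand, *Notch2* (ENSMUSG00000027878) chr3:98013527-98150361 on the plus strand, *Notch3* (ENSMUSG00000038146) chr17:32120820-32166852 on the minus strand and *Notch4* (ENSMUSG00000015468) chr17:34564268-34588503 on the plus strand. Their merged exons cover 14232, 10782, 8089 and 8061 bases in that order. As the receptors are known from different cells, the 250 bases before each RefSeq start site (GRCm38.p6) are shown here, 5′ to 3′ on the strand of the gene, with capitals on each GC box (GGGCGG or its reverse complement CCGCCC), the sequence bound by Sp factors. The windows are chr2:26503823-26504072 (minus strand), chr3:98013288-98013537 (plus), chr17:32166891-32167140 (minus) and chr17:34564045-34564294 (plus).
Notch1: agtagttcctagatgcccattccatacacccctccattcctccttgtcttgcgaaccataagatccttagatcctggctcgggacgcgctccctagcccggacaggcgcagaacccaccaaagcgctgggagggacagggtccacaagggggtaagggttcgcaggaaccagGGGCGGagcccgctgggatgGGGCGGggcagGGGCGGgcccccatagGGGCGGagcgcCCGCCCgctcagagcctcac
Notch2: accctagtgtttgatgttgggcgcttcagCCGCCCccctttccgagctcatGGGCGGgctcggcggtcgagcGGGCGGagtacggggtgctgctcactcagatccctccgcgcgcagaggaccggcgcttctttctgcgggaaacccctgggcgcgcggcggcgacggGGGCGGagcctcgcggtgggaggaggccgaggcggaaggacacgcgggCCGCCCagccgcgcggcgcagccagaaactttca
Notch3: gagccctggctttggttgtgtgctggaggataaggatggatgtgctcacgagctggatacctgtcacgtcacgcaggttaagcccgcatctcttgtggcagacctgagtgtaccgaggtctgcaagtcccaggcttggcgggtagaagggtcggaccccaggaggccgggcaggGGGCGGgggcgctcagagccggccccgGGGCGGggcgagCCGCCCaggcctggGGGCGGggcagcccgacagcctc
Notch4: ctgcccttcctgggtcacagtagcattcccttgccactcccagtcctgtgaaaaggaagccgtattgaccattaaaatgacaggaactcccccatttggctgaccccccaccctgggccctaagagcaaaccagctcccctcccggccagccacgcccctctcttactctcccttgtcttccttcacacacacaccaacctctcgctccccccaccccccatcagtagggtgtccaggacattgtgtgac
The *Notch4* window stood apart from the other 3 in its letters. It held 0 GC boxes and 4 CpG dinucleotides, against 5 GC boxes and 16 CpG in *Notch1*, 5 and 34 in *Notch2*, and 4 and 17 in *Notch3*. Among 27025 RefSeq promoter windows of the same length, 1 per gene symbol, 32.9% held a GC box on either strand and the median was 6 CpG. The letters TGGGAA or TTCCCA, the core of the site bound by Rbpj, were in 0 of the 4 windows and in 21.5% of all windows. These matches describe the letters only.

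Recovered read counts per library ranged from 7827496 to 28464430. Each receptor was well counted, with a counting error per library of 1.91% to 5.48% of its value, while the coefficient of variation between WT libraries of a group was 2.49% to 14.5%. Values are normalized counts, in CPM of a scaled library size. The labelled tissue was in keeping with its markers, since all 8 cardiomyocyte genes listed were in every table, with summed levels of 32650 to 52030. The targeted genes differed from WT in the direction the labels say, although not all passed the test. By limma, *Dll4* did not pass in the late *Dll4* mutants (adjusted p = 0.0507) or in gain of function hearts (adjusted p = 0.354). *Efnb2* did not pass in the *Efnb2* mutants (limma adjusted p = 0.297). *Jag1* was 20.9 to 27.4 in *Jag1* mutant and 39.1 to 45.7 in WT libraries. *Dll4* was 1.53 and 1.29 in the early *Dll4* mutants against 13.2 to 17.8 in their WT, a difference that describes libraries kept in part for it. It was 8.11, 20.7 and 9.53 (replicates 2, 3 and 4) in the late *Dll4* mutants against 23.2 to 28.6, so replicate 3 kept most of its *Dll4* RNA. *Dll4* was 38.5 to 42.7 in gain of function and 31.7 to 35.2 in WT libraries. *Efnb2* was 44.4 to 48.4 in *Efnb2* mutant and 55.1 to 80.6 in WT libraries. Reads that cover both strands of a locus cannot be assigned where strand is not stated. *Notch1* shares 1068 exonic bases with 0610009E02Rik and 414 with Gm13568 on the opposite strand, *Notch3* shares 488 with the antisense gene Gm17276, *Notch2* shares 541 with Gm42820 on its own strand, and *Notch4* shares none.

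In WT hearts all 4 receptors were expressed, and per kilobase of merged exons *Notch3* had the highest mean in 4 of the 5 tables and *Notch4* the lowest in all 5, with no overlap between their libraries in any table. Per kilobase, *Notch3* was at 8.05 ± 0.725 (SD, n = 4) and *Notch4* at 4.76 ± 0.301 in the WT of the *Jag1* experiment, and at 11.2 ± 1.37 and 5.31 ± 0.255 in the WT of the *Efnb2* experiment. In the WT of the early *Dll4* experiment the highest was *Notch2*, at 7.88 ± 0.444, beside *Notch3* at 7.57 ± 1.10, and these did not differ beyond their spread. *Notch1* was at 6.99 ± 0.461, 6.57 ± 0.164, 5.24 ± 0.358, 7.71 ± 0.540 and 6.06 ± 0.677 in the 5 WT groups, and the order of the receptors rests on the length used. Per kilobase of its longest transcript (9488 bases) its mean was 10.5, 9.85, 7.86, 11.6 and 9.08, above the means of *Notch2* and *Notch3* in all WT groups but that of the *Efnb2* experiment, where *Notch3* was at 11.3. In the E15.5 groups it was above *Notch3* (7.66 and 11.3 by that length) by less than the spread between libraries. By that length *Notch4* was also level with *Notch2* at E15.5, at 5.73 and 5.73 in the WT of the late *Dll4* and 7.70 and 7.66 in that of the gain of function experiment, so it was not the lowest in every table.

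The make-up of the receptor pool was followed as the share of each receptor in the per-kilobase sum of the 4, which does not depend on how a library was scaled. *Notch3* took 29.6% ± 1.5 and 28.9% ± 2.81 (SD, n = 4) of the pool in the E12.5 tables, 32.9% ± 1.35 and 34.2% ± 1.41 at E15.5 and 38.0% ± 1.41 at E16.5. Every E16.5 library (36.7% to 39.4%) lay above every library at E12.5 and E15.5. *Notch1* took 25.7% ± 0.662 and 25.2% ± 1.85 at E12.5, 22.7% ± 0.621 and 23.6% ± 1.11 at E15.5, and 20.6% ± 0.602 at E16.5, where each library was below each earlier one. The share of *Notch2* was 27.1% ± 0.915 and 30.2% ± 0.245 at E12.5 and 24.2% ± 0.267, 22.8% ± 0.159 and 23.2% ± 0.914 in the later ventricles, with no overlap between the earlier and later libraries. WT groups of the same stage did not overlap in this share either, at E12.5 or at E15.5. Shares can thus differ between tables without a change of stage. *Notch4* took 17.6% ± 1.67, 15.6% ± 1.49, 20.3% ± 0.985, 19.3% ± 1.42 and 18.2% ± 1.66, and its E16.5 libraries overlapped those of each other table. The tables were normalized apart, so these shares are a description with no test, and tissue and kit changed with stage.

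**Figure D1:**
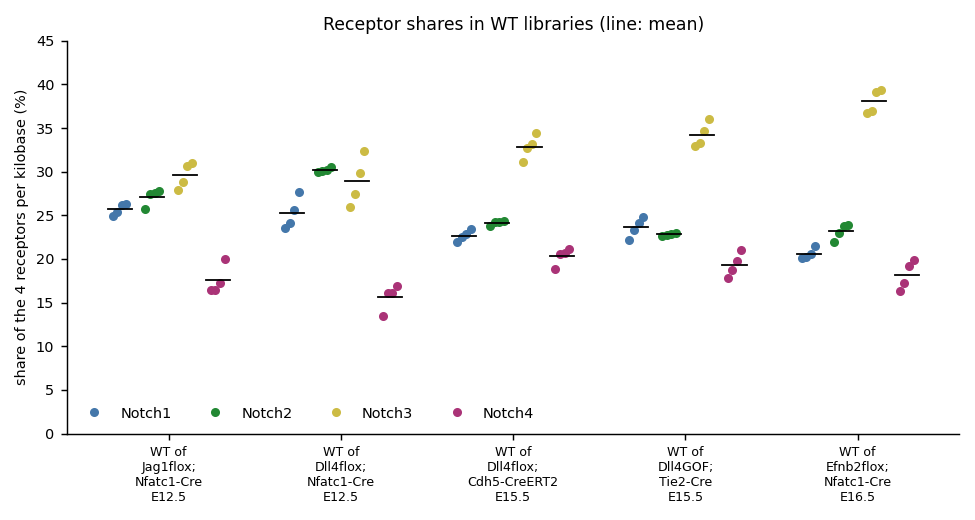
Share (%) of each Notch receptor in the summed per-kilobase level of the 4, in the 20 WT libraries, with 1 point a library, the line at the mean, and the 5 tables on the x axis. *Notch3* had a mean of 28.9% and 29.6% in the E12.5 tables and 38.0% at E16.5, and *Notch1* 25.2% and 25.7% against 20.6%.

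Levels could not be set across tables in the same way. Between the WT groups of the E15.5 tables, which hold the same stage and tissue, all 4 receptors were higher in that of the gain of function experiment, by 0.55, 0.41, 0.55 and 0.42 on the log2 scale for *Notch1* to *Notch4*. Protein-coding genes with a transcript of 8000 bases or more had a median difference of 0.19 between those WT groups, and the shorter ones 0.03. Between the WT groups at E12.5 the receptors differed by -0.09, 0.10, -0.10 and -0.22, with medians of 0.24 for long and 0.01 for shorter genes. Each mutant was therefore compared with its own WT only.

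The main question was whether loss or gain of a ligand, or loss of EphrinB2, came with a change in receptor RNA. Of the 20 comparisons of a receptor with its own WT, 1 passed the test, *Notch1* in the early *Dll4* mutants, which fell. The test was limma on log2(normalized count + 0.5), with p-values adjusted by Benjamini-Hochberg over all genes of a table and a call at an adjusted p under 0.05. In the *Jag1* mutants 0 of 4 receptors were called, where 1.75% of all genes were. In the early *Dll4* mutants 1 of 4 was called, against 2.17% of all genes, and in the late *Dll4* mutants 0 of 4, against 1.15%. In the gain of function hearts 0 of 4 were called and 0% of all genes. There limma called 0 of 13737 genes, with 1280 at an unadjusted p under 0.05, edgeR 0 and DESeq2 45. In the *Efnb2* mutants 0 of 4 were called, against 0.0296% of all genes, and 858 of 13527 genes had an unadjusted p under 0.05. Mutant and WT libraries did not overlap for *Notch1* in the early and for *Notch4* in the late *Dll4* mutants, and overlapped in the other 18 comparisons. Over all genes the share without overlap was 13.8% in the *Jag1* mutants, 31.5% in the early and 13% in the late *Dll4* mutants, 8.95% with gain of function and 3.64% in the *Efnb2* mutants.

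**Figure D2:**
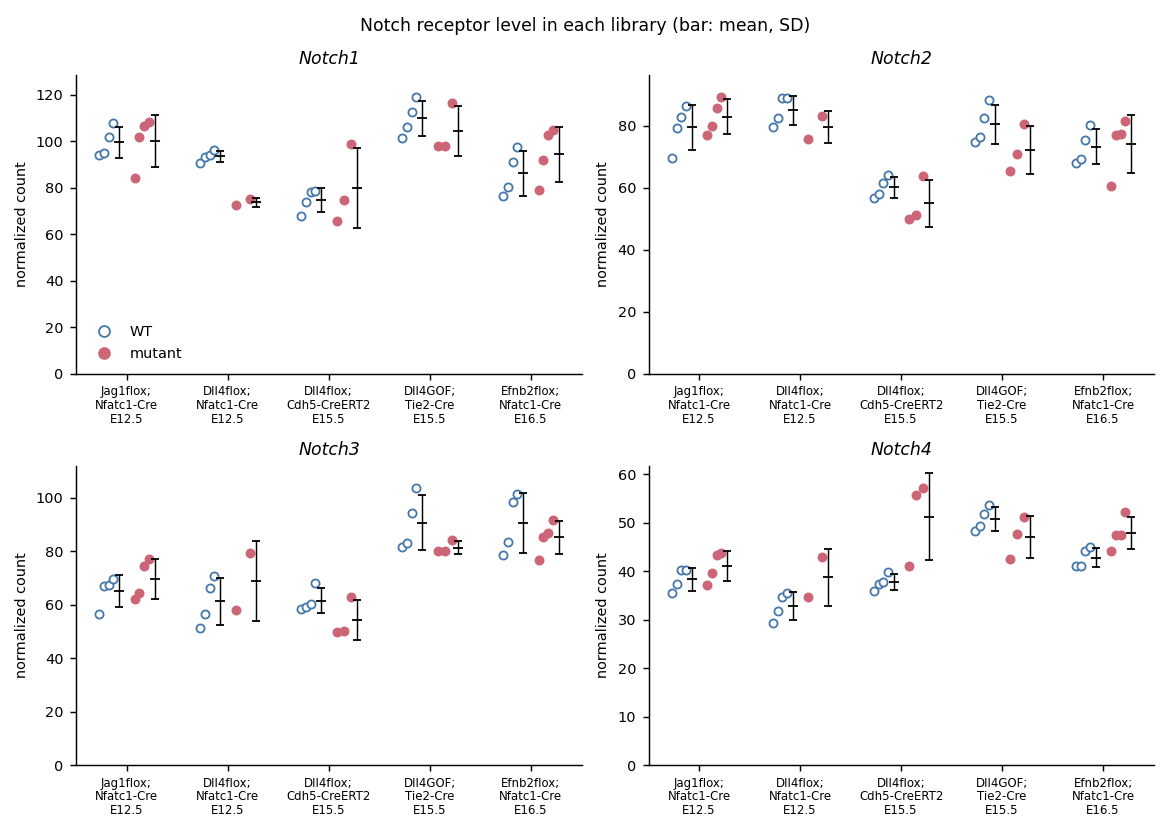
Normalized count (linear axis from 0) of each Notch receptor in all 36 libraries, WT open and mutant filled, with the mean and SD beside each group. *Notch1* at 74.9 and 72.4 in the early *Dll4* mutants lay below its WT (90.6 to 96.1), and *Notch4* at 41.0 to 57.2 in the late *Dll4* mutants lay above its WT (35.9 to 39.9).

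*Notch1*, the receptor through which Dll4 acts in sprouting vessels, was at 96.1, 94.2, 90.6 and 93 in the 4 WT libraries beside the early *Dll4* mutants. It was at 74.9 and 72.4 in the 2 mutant libraries, and the groups did not overlap. These 2 libraries were kept after others were discarded for *Dll4* level and clustering. What that selection did to this gap or its spread was not tested. The means were 93.5 ± 2.33 (SD, n = 4) and 73.6 ± 1.8 (SD, n = 2), a log2 fold change of -0.34 (standard error 0.0513, 95% interval -0.46 to -0.23, limma adjusted p = 0.0234). These 4 WT libraries had the smallest spread of any receptor in a WT group, 2.49% of their mean. Leaving out either mutant library leaves 1, assumed to vary like the WT libraries, and the adjusted p by limma was then 0.0308 without replicate 1 and 0.133 without replicate 2. The call was also lost without WT replicate 1 (adjusted p = 0.0617), 2 (0.0561) or 4 (0.0817), and when the variances were not fitted to a trend (0.0812), while the log2 fold change stayed between -0.37 and -0.32 in all settings run. Of the 12 pan-endothelial genes listed, all in the table, 0 were called and 9 had a positive log2 fold change, and their summed level was 1250.1 to 1337 in WT and 1289.8 to 1326 in mutant libraries. Of 8 arterial genes, by contrast, 2 were positive, with a median log2 fold change of -0.29, and their sums did not overlap, at 682 to 730 in mutant and 739 to 784 in WT libraries. The gap junction gene *Gja4* fell (-0.56, limma adjusted p = 0.0139) and the transcription factor *Sox17* rose (0.99, limma adjusted p = 0.0235) among them. Smooth muscle sums were also lower without overlap (1302 to 1330 against 1370.0 to 1443, 1 of 5 genes fell, *Cnn1*) and epicardial sums higher (370.5 to 395 against 323 to 369, 1 of 6 rose, *Wt1*). Of 5 endocardial markers 0 were called and 1 was positive, and their sums were lower without overlap, at 241 to 267 in mutant and 269 to 294 in WT libraries. Of all genes taken singly, 31.5% did not overlap in this experiment. Erythroid and platelet genes were lower in the mutant libraries, all 6 and all 3 of those listed having a negative log2 fold change with 0 called. Their sums were 1798 to 3384 in mutant against 3050 to 6332 in WT libraries, and 10.8 to 13.9 against 22.4 to 53.7. Genes with a transcript of 8000 bases or more had a median log2 fold change of -0.08, against 0.00 for shorter ones. The genes *Gja4*, *Sox17*, *Cnn1* and *Wt1* were named after their values were seen. The part of these in the fall of *Notch1* was not tested.

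In the other experiments *Notch1* did not pass. In the *Jag1* mutants it was at 102, 108, 84.0 and 107 against 108, 94.7, 102 and 93.8 in WT, a log2 fold change of 0.00 (95% interval -0.17 to 0.18, adjusted p = 0.978). The mutant values reached from below to just above the WT range. The late *Dll4* mutants had it at 74.8, 65.7 and 98.8 against 73.7, 67.7, 78.3 and 78.6 (0.08, interval -0.18 to 0.33, adjusted p = 0.821), and 1 mutant library lay above and 1 below all WT libraries. In gain of function hearts it was at 98.0, 117 and 98.1 against 106, 102, 112 and 119 (-0.08, interval -0.23 to 0.08, adjusted p = 0.773). In the *Efnb2* mutants it was at 78.8, 105, 91.9 and 102 against 80.2, 91.0, 97.3 and 76.3 (0.13, interval -0.08 to 0.33, adjusted p = 0.869).

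*Notch4*, the receptor most restricted to endothelium, was highest relative to WT in the late *Dll4* mutants without passing the test. Its normalized count was 55.7, 41.0 and 57.2 in mutant replicates 2, 3 and 4 and 37.9, 35.9, 39.9 and 37.3 in WT. All 3 mutant libraries lay above all WT libraries, and replicate 3, which kept most of its *Dll4* RNA, was the nearest to them. Replicate 3 also had the fewest recovered counts of the experiment (8262124). Its mean log2 level of pan-endothelial genes was 0.18 above WT, against 0.37 and 0.43 in replicates 2 and 4. Which of these went with its *Notch4* level was not tested. The means were 51.3 ± 8.95 (SD, n = 3) and 37.7 ± 1.65 (SD, n = 4), a log2 fold change of 0.42 (standard error 0.107, 95% interval 0.19 to 0.66, adjusted p = 0.0920). Without mutant replicate 3 it was 0.58 with an adjusted p of 0.00226 by limma, and without replicate 2 or 4 it was 0.36 and 0.34 with adjusted p = 0.414 and 0.152. DESeq2 on the recovered counts (adjusted p = 0.0118), library quality weights (0.00898) and a spread shared over the 5 tables (0.00530) also called it, and edgeR did not (0.0623). Pan-endothelial genes were higher in the same libraries: 3 of the 12 listed rose, against 1.15% of all genes called, and 11 had a positive log2 fold change. Their summed level was 1465 to 1785 in mutant and 1322 to 1375 in WT libraries, where 13% of all genes taken singly did not overlap. Macrophage genes had 6 of 6 positive with 0 called, and sums of 89.4 to 121 against 79.3 to 96.9. The part of either in the *Notch4* values was not tested beyond the ratio to endothelial markers given below.

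Elsewhere *Notch4* did not pass the test. In the early *Dll4* mutants it was at 34.6 and 42.9 against 31.7, 35.6, 29.3 and 34.7 in WT, 1 library inside and 1 above the WT range (0.23, 95% interval -0.02 to 0.48, adjusted p = 0.261). In the *Efnb2* mutants it was at 44.2, 47.4, 52.2 and 47.5 against 45, 41.1, 44.2 and 41.1, with 3 of 4 mutant libraries above all WT libraries (0.16, interval 0.01 to 0.30, unadjusted p = 0.0330, adjusted p = 0.768 by limma). In the *Jag1* mutants it was at 43.8, 43.4, 37.2 and 39.7 against 40.3, 35.4, 37.3 and 40.4 (0.09, interval -0.06 to 0.25, adjusted p = 0.432). In gain of function hearts it was at 51.2, 47.8 and 42.5 against 49.3, 51.9, 53.6 and 48.2 (-0.11, interval -0.26 to 0.04, adjusted p = 0.649).

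*Notch2* stayed within 0.16 of its WT on the log2 scale in all 5 experiments, and none of these differences passed. The lowest value was in gain of function hearts, at 71.0, 80.6 and 65.3 against 76.3, 74.6, 88.3 and 82.7 in WT (-0.16, 95% interval -0.32 to 0.01, adjusted p = 0.570). In the late *Dll4* mutants it was at 50.1, 51.2 and 63.7 against 58.2, 56.7, 61.6 and 64.2 (-0.14, interval -0.33 to 0.06, adjusted p = 0.545), with replicates 2 and 3 below all WT libraries. In the *Jag1*, early *Dll4* and *Efnb2* mutants the log2 fold changes were 0.06, -0.09 and 0.01.

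*Notch3*, the receptor of mural cells, had the widest spread of the 4 receptors in the early *Dll4* experiment, 14.5% of the mean in WT and 21.9% in mutant libraries. It was at 58.1 and 79.5 in these mutants, so 1 of 2 libraries lay within and 1 above the WT range of 51.3 to 70.8 (0.16, 95% interval -0.18 to 0.51, adjusted p = 0.584). The late *Dll4* mutants had *Notch3* at 49.7, 50.2 and 63.0 against 60.1, 58.2, 59.1 and 68.3, with replicates 2 and 3 again below all WT libraries (-0.18, interval -0.39 to 0.02, adjusted p = 0.411). In gain of function hearts it was at 79.9, 84.1 and 80.1 against 83.2, 81.5, 104 and 94.3 (-0.15, interval -0.32 to 0.02, adjusted p = 0.583). In the *Jag1* and *Efnb2* mutants the log2 fold changes were 0.09 and -0.08, with intervals of -0.09 to 0.28 and -0.26 to 0.10. The listed mural genes had 0 called in all 5 experiments. Long genes, with transcripts of 8000 bases or more, had a median log2 fold change of the same sign as most receptors in 2 experiments, at -0.12 in gain of function hearts, where all 4 receptors were negative, and 0.11 in the *Jag1* mutants. In the late *Dll4* and *Efnb2* mutants that median was -0.01 and -0.05. Its part in the receptor values was not tested.

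**Figure D3:**
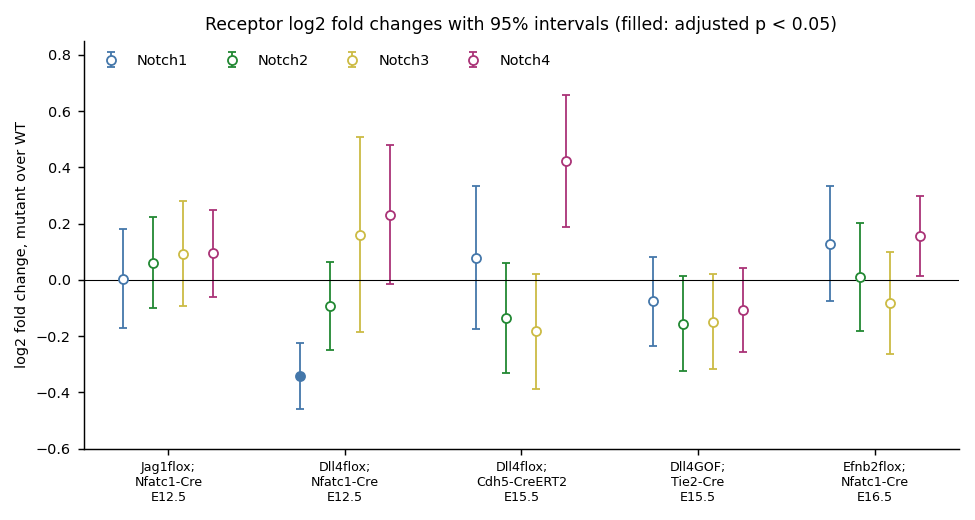
Log2 fold change of mutant over WT for each Notch receptor in the 5 experiments, as points with 95% intervals from limma and filled where the adjusted p was under 0.05. *Notch1* in the early *Dll4* mutants (-0.34) is the only filled point, and *Notch4* in the late *Dll4* mutants (0.42) is the highest.

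The effects were next compared between experiments, since a call in one and not in another is no test of a difference. The contrast of the mutant-minus-WT differences was fitted for 3 pairs, and in each 0 of 4 receptors passed. The *Notch1* effect was lower in the early *Dll4* than in the *Jag1* mutants by 0.35 (95% interval -0.58 to -0.11, unadjusted p = 0.00693, limma adjusted p = 0.181), where 0.0145% of all genes passed. It was higher in the late than in the early *Dll4* mutants by 0.42 (interval 0.10 to 0.74, unadjusted p = 0.0142, adjusted p = 0.252 by limma), against 0.288% of genes that passed. The *Notch4* effect in gain of function hearts was below that in the late *Dll4* mutants by 0.53 (interval -0.82 to -0.25, unadjusted p = 0.00113, adjusted p = 0.104 by limma), with 0.324% of genes past the threshold. That difference was -0.68 with an adjusted p of 0.00191 without late *Dll4* mutant replicate 3, and did not pass without any other library (limma adjusted p up to 0.337). The early and late comparison also differs in driver, stage and tissue.

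Ratios of receptors within a library do not depend on its scaling, and none of 15 such tests passed after adjustment. With so few libraries no single ratio could have passed over 15 tests, so this does not show that the ratios were alike. The log2 ratio of *Notch4* to *Notch1* was -1.10 and -0.75 in the early *Dll4* mutants and -1.61 to -1.39 in their WT, a difference of 0.57 (exact permutation p = 0.0667, the smallest that 4 against 2 libraries allow, adjusted p = 0.25). In the late *Dll4* mutants it was -0.78 to -0.42 against -1.06 to -0.91, a difference of 0.34 (exact permutation p = 0.0286, the smallest allowed there, adjusted p = 0.143). The ratio lay above WT in every library of both *Dll4* deletions. Of all genes taken singly, 31.5% in the early and 13% in the late mutants did not overlap with WT. No such share was counted for ratios of genes. *Notch1* itself had a log2 fold change of -0.34 in the early and 0.08 in the late one, effects whose difference did not pass (limma adjusted p = 0.252). In the late one *Notch4* was the receptor with the highest log2 fold change. In gain of function hearts it differed by -0.03 from WT (exact permutation p = 0.800) and in the *Jag1* mutants by 0.09 (exact permutation p = 0.286). The ratio of *Notch2* to *Notch1* was lower by 0.21 in the late *Dll4* mutants (exact permutation p = 0.0286, adjusted p = 0.143), with no overlap between groups. It was higher by 0.25 in the early ones (exact permutation p = 0.133). *Notch3* over *Notch1* also went opposite ways, higher by 0.50 in the early (exact permutation p = 0.2) and lower by 0.26 in the late *Dll4* mutants (exact permutation p = 0.0857), so *Notch1* lay below the other 3 receptors relative to WT in the early deletion and between them in the late one. The same ratio was below WT in all 4 *Efnb2* mutant libraries, at -0.26 to -0.04 against 0.04 to 0.11, a difference of -0.21 (exact permutation p = 0.0286, adjusted p = 0.143).

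**Figure D4:**
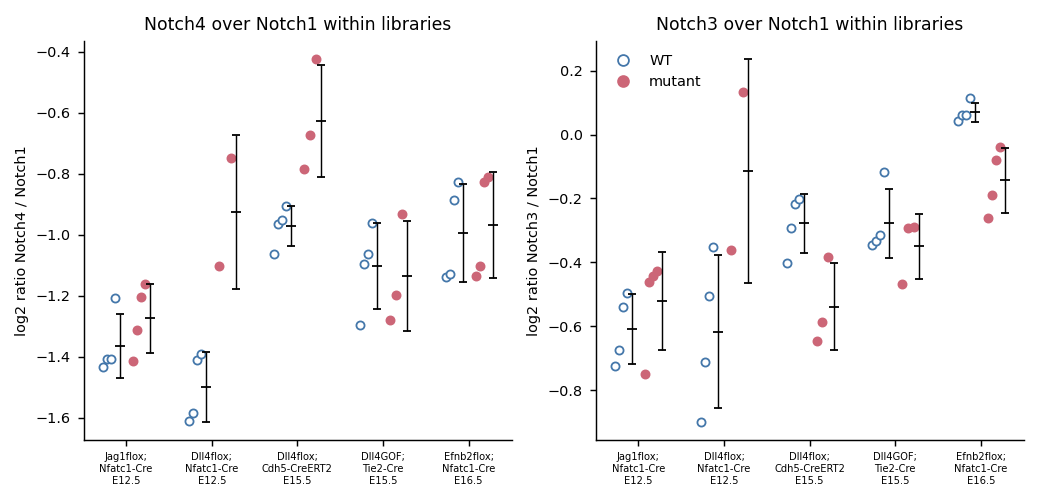
Log2 ratio of *Notch4* (left) and *Notch3* (right) to *Notch1* in each library of the 5 experiments, WT open and mutant filled, with the mean and SD beside each group. *Notch4* over *Notch1* was -1.10 and -0.75 in early *Dll4* mutants against -1.61 to -1.39 in WT, and -0.78 to -0.42 in late *Dll4* mutants against -1.06 to -0.91.

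The receptors were then set against markers of the cells known to express them, in the same library. *Notch1* minus the mean log2 level of the 12 pan-endothelial genes was -0.08 and 0.03 in the early *Dll4* mutants and 0.43 to 0.51 in WT. This difference of -0.49 was larger than that of *Notch1* alone (exact permutation p = 0.0667, the smallest allowed, adjusted p = 0.536 over 15 tests), as the mean of the list was 0.15 higher than in WT. The list was not uniform in these mutants, with log2 fold changes of -0.28 to 0.65, 9 of 12 positive and 0 called. *Tek* (-0.28), *Tie1* (-0.15) and *Cdh5* (-0.11), named after their values were seen, were negative like *Notch1*. In the late *Dll4* mutants *Notch1* over these markers differed by -0.25 (exact permutation p = 0.143), while *Notch4* over them differed by 0.10 (exact permutation p = 0.229), against the 0.42 of *Notch4* alone. *Notch4* over the same markers differed by 0.13 in the *Efnb2* mutants (exact permutation p = 0.0857) and by 0.05, 0.08 and -0.08 in the *Jag1* mutants, the early *Dll4* mutants and the gain of function hearts. *Notch3* over the mural list differed by -0.21 in the *Efnb2* mutants (exact permutation p = 0.114) and by -0.09 to 0.14 elsewhere. None of the 15 passed after adjustment.

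Over all 36 libraries, each centred on the WT mean of its table, *Notch4* had the highest correlation of the 4 receptors with the pan-endothelial list. Pearson's r with the mean of that list was 0.84 for *Notch4*, 0.15 for *Notch1*, -0.15 for *Notch2* and -0.07 for *Notch3*. Within groups it was 0.65, 0.42, 0.17 and 0.18 in the same order, so *Notch1* was nearer to *Notch4* there. With 1 table left out r ranged from 0.68 to 0.88 for *Notch4* and from -0.20 to 0.34 for *Notch1*. With the mural list r was 0.49 for *Notch3* and nearly the same, 0.46, for *Notch2*, against 0.22 for *Notch1* and 0.17 for *Notch4*. With the cardiomyocyte list it was -0.50 for *Notch3*. The libraries share tables, dissections and depth, so these are descriptions.

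**Figure D5:**
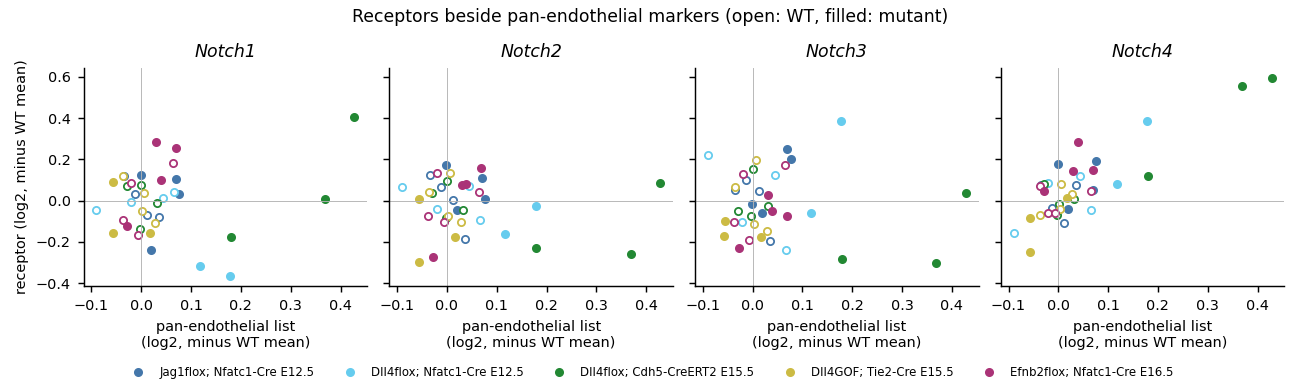
Level of each Notch receptor against the mean of 12 pan-endothelial genes in the 36 libraries, both as log2 values minus the WT mean of the same table, with WT open, mutant filled and colours for the experiments. *Notch4* rises along the x axis (r = 0.84), and the early *Dll4* mutants sit at -0.32 and -0.37 for *Notch1*.

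The genes whose pattern over the 36 libraries was most like that of each receptor are given as a description, with no test of what they share. For *Notch4* the first 5 of 12140 protein-coding genes were *Sipa1* (r = 0.87), the VEGF receptors *Kdr* (0.85), *Flt4* (0.85) and *Flt1* (0.84), and the Notch ligand *Jag2* (0.83). *Kdr* was at 235, 190 and 263 in replicates 2, 3 and 4 of the late *Dll4* mutants against 166 to 190 in WT, so its lowest mutant library was again replicate 3 (log2 fold change 0.39, adjusted p = 0.0935). For *Notch1* they were the splicing factor *Prpf8* (0.85), the protocadherin *Dchs1* (0.84), fibronectin *Fn1* (0.82), *Amotl1* (0.81) and the chromatin remodeller *Arid1a* (0.80). *Notch2* was most like the methyltransferase *Kmt2c* (0.83), *Tenm3* (0.83), the helicase *Helz* (0.82), the protocadherin *Fat4* (0.81) and *Arid1a* (0.81). *Notch3* was most like the glypican *Gpc6* (0.77), *Tenm4* (0.76), the collagen receptor *Mrc2* (0.72), *Brinp1* (0.72) and *Igdcc4* (0.71). The neighbours of *Notch1* and *Notch2* had long transcripts, of 7442 to 16109 bases, and 782 genes with transcripts of 8000 bases or more had a median r of 0.36 with *Notch1*, 0.44 with *Notch2*, 0.32 with *Notch3* and 0.10 with *Notch4*. Shorter genes had medians of -0.03 to -0.01. Between receptors, r was 0.70 for *Notch2* with *Notch3*, 0.65 for *Notch1* with *Notch2* and 0.05 to 0.28 for *Notch4* with the others.

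Of the ligands that bind these receptors, *Dll1*, *Dll4*, *Jag1* and *Jag2* were in all tables and *Dll3* is not analysed here. Besides the deleted *Jag1*, the *Jag1* mutants had a fall of *Dll1*, at 10.9 to 13.3 against 16.4 to 19.4 in WT (-0.55, standard error 0.0908, limma adjusted p = 0.0247). *Dll1* also fell in the early *Dll4* mutants, at 7.45 and 6.90 against 11.8 to 15.8 (-0.85, standard error 0.139, adjusted p = 0.0287). *Jag2* rose in neither *Dll4* deletion by the test, with log2 fold changes of 0.45 (adjusted p = 0.127) in the early and 0.50 (adjusted p = 0.0888) in the late mutants. With the deleted gene counted, 2 of 4 ligands fell in the *Jag1* mutants, where 1.75% of all genes were called. In the early *Dll4* mutants 2 of 4 fell, again with the deleted gene counted, against 2.17% of all genes called. In the other experiments 0 of 4 were called. The median log2 fold change of the 4 ligands was -0.19, -0.53, 0.00, 0.02 and 0.05 in the 5 experiments, beside 0.00 over all genes in each. In all but the *Efnb2* experiment the targeted gene is itself among the 4, so these medians do not describe the other ligands. In the *Jag1* mutants *Dll4* was at 0.19 and *Jag2* at 0.17, against the fall of *Dll1*. In the early *Dll4* mutants *Jag1* was at -0.21, between *Dll1* and *Jag2*.

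Among 14 genes that process or modify the receptors, *Mfng*, a glycosyltransferase that adds sugar to the Notch extracellular domain, rose in both *Dll4* deletions. It was at 13.9 and 16.8 against 6.83 to 9.77 in the early *Dll4* mutants (0.79, limma adjusted p = 0.0458) and at 22.0, 18.4 and 19.1 against 13 to 14.1 in the late ones (0.54, limma adjusted p = 0.0257). The groups did not overlap in either, where 31.5% (early) and 13% (late) of all genes taken singly did not overlap. The *Mfng* calls were not followed under the other settings. The mean log2 level of the pan-endothelial list was also higher than in WT, by 0.15 in the early and 0.33 in the late mutants. Its part in the *Mfng* values was not tested. In the *Jag1* mutants its log2 fold change was 0.39 (adjusted p = 0.0673). The protease *Adam10*, which makes the first ligand-dependent cut in Notch1, was at 195 and 190 in the early *Dll4* mutants against 214 to 235 in WT without passing (-0.22, adjusted p = 0.0755). The other 13 genes of this list had 0 called in each *Dll4* deletion, and 0 of 14 were called in the remaining 3 experiments.

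In the nucleus, 0 of 4 genes of the Notch complex were called in any experiment. *Rbpj*, which carries the receptor domain to DNA, had log2 fold changes of 0.27 in the *Jag1* mutants (adjusted p = 0.114) and -0.20 in the late *Dll4* mutants (adjusted p = 0.324). Of 5 targets, *Heyl*, a Notch target of mural cells and endothelium, fell in the *Jag1* mutants, where it was at 7.48 to 9.78 against 13 to 16.7 (-0.74, standard error 0.107, limma adjusted p = 0.0178). The early *Dll4* mutants, in which *Notch1* fell, had 0 of 5 targets called and 5 of 5 with a positive log2 fold change, from 0.04 to 0.22. For the late *Dll4* mutants 1 of 5 was positive and 0 were called, and *Hey1* in the *Efnb2* mutants was at 0.46 (adjusted p = 0.678). Of 6 genes of receptor turnover and inhibition 0 were called in any experiment, and the ubiquitin ligase *Itch* in the *Jag1* mutants was nearest to it (0.25, adjusted p = 0.0853).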

How the data were processed

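RNA-seq was made from 36 libraries of mouse hearts or ventricles with the NEBNext Ultra kit. Per the labels and methods, the authors used CASAVA 1.8.2 (step not given), removed adaptors by cutadapt 1.6, mapped reads to the GRCm38 transcriptome, estimated expected counts with RSEM (1.2.3 in the labels, another release in the methods) and normalized with limma. The deposited signal, called a normalized count here, is in CPM of an adjusted library size, after rounding of each expected count and addition of 0.5. In each column all values (100%) gave whole counts within 0.01 once that scaling was undone. Symbols, types and lengths came from GENCODE on GRCm38, and start-site sequences from RefSeq.

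Each mutant was compared with its own WT by limma 3.58.1 (R 4.3.3) with a mean-variance trend on log2(value + 0.5), two-sided, with Benjamini-Hochberg adjustment over all genes of the table. A filter of 1 CPM removed 0 genes. Ratios within a library were compared by exact two-sided permutation tests. The limma test was run on simulated counts with known 1.5-fold and 2-fold changes, and no smaller change was simulated. It recovered 70% (early *Dll4* design) to 88% (*Jag1* design) of the 1.5-fold and 95% to 100% of the 2-fold changes. False calls were 2.67% (gain of function design) to 8.7% (early *Dll4* design) of all calls. Each library is a pool of embryos or 1 embryo, as the series' design text states. Alternatives were other variance models, weights, normalizations, pseudocounts and filters, a block for replicate number, 1 spread for all 5 tables together, edgeR 4.0.16, DESeq2 1.42.0 and voom on recovered counts, and leaving out each library. Log2 values without a pseudocount were added after seeing the data.

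Genes named are the 4 receptors, the targeted genes, genes of 5 Notch lists that passed with at most 2 others a list, and the 5 nearest genes to each receptor. Members and lists were chosen with earlier results of these data known.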

Additional observations from a re-analysis of the deposited data

How the results depend on the processing

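The number of receptors called in the early *Dll4* mutants was 1 in the fit reported and 0 without the trend, 0 with a replicate block and 0 with a spread shared over the 5 tables. Leaving out 1 library at a time gave 0 to 1. In the late *Dll4* mutants it was 0 in the fit reported and 1 with library quality weights, 1 with DESeq2 and 1 with a shared spread, and 0 to 1 when 1 library was left out. In the other 3 experiments it was 0 under every alternative run. The number with different effects was 0 to 1 for the late *Dll4* mutants against gain of function when 1 library was left out, and 0 in all other runs of the 3 pairs. For the receptor and marker ratios the smallest exact permutation p, 0.0286 or 0.0667, could not let a single one pass over 15 tests, so the alternatives say nothing on their stability.

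Of the values that did not pass, those below changed sign and moved by at least 1 standard error when 1 library was left out. *Notch3* in the early *Dll4* mutants ranged from -0.0627 to 0.385, lowest without mutant replicate 2, and *Notch1* in the late ones from -0.0855 to 0.207, lowest without mutant replicate 4. The early *Dll4* effect minus the *Jag1* effect ranged from -0.16 to 0.29 for *Notch3* and from -0.0168 to 0.29 for *Notch4*, and the gain of function effect minus the late *Dll4* effect from -0.28 to 0.00914 for *Notch1*. *Notch3* over the mural list in the late *Dll4* mutants was -0.09 with the mean of the list and 0.13 with its median. The cause of these was not tested.

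The deviations of same-numbered mutant and WT libraries had correlations of -0.13 to 0.23. Pairs of different number were not set beside them, so this does not settle whether the numbers mark pairs. With the replicate block, *Notch1* in the early *Dll4* mutants was at -0.37 (adjusted p = 0.144, over 2 pairs), and limma called 77, 31, 180, 1 and 6 genes in the 5 experiments, against 245, 311, 160, 0 and 4. Over the other settings the counts of all genes ranged from 48 to 1174, 31 to 883, 5 to 791, 0 to 45 and 0 to 25. Without 1 library they were 17 to 538, 36 to 563, 6 to 574, 0 to 29 and 3 to 13. Lengths of the longest transcript moved the per-kilobase levels of *Notch1* and *Notch4* in all 5 WT groups by more than 1 SD.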
